A study of Mus musculus with 244 samples.

Results

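The genes described here are 8 tetraspanins of plaque macrophages, Cd81, Cd9, Cd63, Cd82, Cd53, Cd37, Cd151 and Tspan4, all 8 of which were found by symbol among the 24475 genes of the deposited table. They were picked by name as family members, with Cd81 put first because its difference between the groups was already known, so the contrast between the groups is given for them as a description. The regression group holds F4/80+ CD11b+ CD45+ macrophages from aortic arches of Apoe-/- donors that had eaten a high-fat diet for 16 weeks, taken 3 days after the arch was grafted into wild-type mice on chow. The baseline group holds macrophages sorted in the same way from arches of Apoe-/- mice after 16 weeks of high-fat diet, with no graft. Both groups thus come from arches that developed plaque without Apoe, but the labels do not say whether a regression cell came from the donor or the wild-type host, and host genotype, diet and surgery cannot be told apart. Apoe RNA, which marks the host genotype, lay above every baseline cell in 106 of 113 regression cells, as given below. The cells compared thus need not share a genotype. Each library is 1 cell; no strain, sex, age, number of mice or pooling of mice is stated in the labels.

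Tetraspanins are small proteins that cross the membrane several times and hold partner proteins such as integrins, immunoglobulin superfamily members and proteases in shared patches of membrane. CD9 and CD81 are close relatives that bind many of the same partners and are known to restrain the fusion of macrophages into giant cells. CD63 sits mainly in late endosomes and lysosomes and, with CD9 and CD81, is widely used to mark extracellular vesicles, while CD37 and CD53 are largely restricted to blood cells.

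Promoters of Cd81, Cd9 and Cd53 are shown because they stand for the genes that differed most between the groups and for the most abundant gene, which differed little. They, and the motifs, were picked after the sequences and the values had been seen. Each run of 300 bases spans the start of the gene, most of it upstream, on the strand of the gene, from RefSeq on GRCm38.p6. Capitals mark GC boxes (GGGCGG or its reverse complement CCGCCC), the TATA box letters TATAAA on the gene's own strand, and the core GAGGAA (or TTCCTC) bound by PU.1, a master transcription factor of macrophages. The E-box CACGTG was searched as well and was found in none of these windows.
Cd81 (chr7:143052500-143052799, plus strand): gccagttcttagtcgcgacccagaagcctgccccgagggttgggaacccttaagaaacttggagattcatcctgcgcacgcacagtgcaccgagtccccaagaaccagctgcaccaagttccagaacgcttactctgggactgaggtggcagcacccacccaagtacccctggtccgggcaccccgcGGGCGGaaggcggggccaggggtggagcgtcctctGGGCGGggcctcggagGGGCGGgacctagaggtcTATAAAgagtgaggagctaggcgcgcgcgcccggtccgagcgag
Cd9 (chr6:125494711-125495010, minus strand): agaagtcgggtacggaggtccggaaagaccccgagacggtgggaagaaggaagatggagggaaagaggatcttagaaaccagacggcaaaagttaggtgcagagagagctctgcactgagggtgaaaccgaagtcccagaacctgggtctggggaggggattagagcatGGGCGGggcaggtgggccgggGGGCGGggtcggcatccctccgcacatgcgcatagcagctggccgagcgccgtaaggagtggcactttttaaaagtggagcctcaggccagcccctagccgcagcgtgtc
Cd53 (chr3:106790100-106790399, minus strand): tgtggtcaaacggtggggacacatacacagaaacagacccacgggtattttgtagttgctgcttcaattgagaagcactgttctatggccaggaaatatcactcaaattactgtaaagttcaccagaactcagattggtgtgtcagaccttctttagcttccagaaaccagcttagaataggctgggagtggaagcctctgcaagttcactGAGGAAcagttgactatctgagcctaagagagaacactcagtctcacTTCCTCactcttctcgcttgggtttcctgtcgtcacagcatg
The Cd81 window held 3 GC boxes and 1 TATA box, the Cd9 window 2 GC boxes, and the Cd53 window neither of these but 2 PU.1 cores. Among 20794 promoter windows of 300 bases that belong to genes of the table, 46.7% held a GC box, 14.8% held 3 or more, 7.91% held the TATA letters, 27.4% a PU.1 core and 8.05% the E-box. G and C made up 65.7% of the Cd81 window, 61.3% of the Cd9 window and 46.3% of the Cd53 window, against a median of 56.7%. Windows of the other members, not shown, did not sort by the difference between the groups. The Cd63 window held 0 GC boxes and 2 PU.1 cores, like that of Cd53, though Cd63 was lower in regression. That window (chr10:128909095-128909394) lies inside the gene's span of 128900989 to 128912822, not at the gene start given below. It may therefore not show the promoter at that start. A Tspan4 window held 3 GC boxes, and a Cd82 and a Cd151 window held 2 each, though these genes differed little. The E-box was found in a Cd37 window and in a Tspan4 window. These letters describe the windows and say nothing about which factors were bound.

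After 3 pairs of near-identical baseline libraries (r of log2 values 0.992 to 0.997, at most 0.62 for any other pair) had been averaged, 244 libraries stood for 241 cells. Leaving out 3 regression cells with under 1000 genes gave 113 regression and 125 baseline cells. A gene is called listed in a cell at RPKM of 1 or more, where RPKM is reads counted relative to transcript length and library size. Levels are log2(RPKM + 1), and each difference is the regression mean minus the baseline mean on that scale, which understates differences of low genes. The median cell listed 2360 genes in regression and 2491 at baseline, and the median share of summed RPKM in ribosomal protein genes was 13.0% in regression and 8.98% at baseline. Depth, worked out from the smallest steps between low values, ran from 0.50 to 2.92 M reads in the 33 regression libraries and from 0.41 to 8.08 M reads in the 46 baseline libraries where it could be estimated; a library's estimate can be off by a whole factor, and no result rests on it. With no animal named, a group counts as 1 sample, so differences stand without a check by replicates and without p-values. SDs are spreads over cells, and intervals (exact binomial, 95%) hold counting error alone. Sample numbers form 5 stretches of 1 condition each: 1 to 20, 93 to 111 and 168 to 244 in regression, with 20, 18 and 75 cells kept, and 21 to 92 and 112 to 167 at baseline, with 69 and 56. The labels do not say whether a stretch was a separate capture, and no stretch holds both groups.

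The labels were checked through the deleted gene. Apoe was listed in 112 of 113 regression cells and 9 of 125 baseline cells, and its level in 106 regression cells exceeded that of any baseline cell, while 7 did not. Since donors and baseline mice lack the gene, Apoe RNA marks the host genotype, and at the level seen in these 106 cells it was found in 0 baseline cells. Macrophage markers matched the label in both groups: at least 3 of 10 were listed in 99.1% of regression and 98.4% of baseline cells. At least 2 B cell, T cell, smooth muscle or mast cell markers were listed in 0 cells of either group, and 3 counts of the total, taken here as the limit for a count of 0, are 2.65% in regression and 2.40% at baseline. At least 2 dendritic cell markers were listed in 0 regression cells and 8 baseline cells, and at least 2 fibroblast markers in 0 regression and 2 baseline cells. At least 2 platelet markers were listed in 1 regression cell and at least 2 endothelial markers in 1 regression cell, against 0 baseline cells for each, and these cells listed Cd81 and Cd9.

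Cd81 was below detection in most regression macrophages and at a high level in most baseline macrophages. Cd81 (gene 12520, chromosome 7, 143052739 to 143067934, plus strand, mm10) encodes a surface tetraspanin that partners integrins. The lowest, median and highest cells stood at 0.00, 0.00 and 10.18 in regression and at 0.00, 8.77 and 11.43 at baseline, on the log2(RPKM + 1) scale. The ranges overlapped, but only 5.31% of regression cells lay above the baseline median. The mean was 1.83 ± 3.13 in 113 regression cells and 7.56 ± 3.23 in 125 baseline cells, a difference of -5.73, the lowest of all genes tested. It was -3.72 with a pseudocount of 10 and -3.21 as the log2 ratio of mean RPKM. Cd81 was listed in 33 of 113 regression cells (29.2%, interval 21.0 to 38.5%) and in 111 of 125 baseline cells (88.8%, interval 81.9 to 93.7%). Cells that did list it also held less of it: their median was 6.50 in regression and 8.98 at baseline. Log2 levels of 9 or more were found in 3 regression cells and 54 baseline cells. Any Cd81 value above 0 was found in 37 of 113 regression and 113 of 125 baseline cells.

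**Figure D1:**
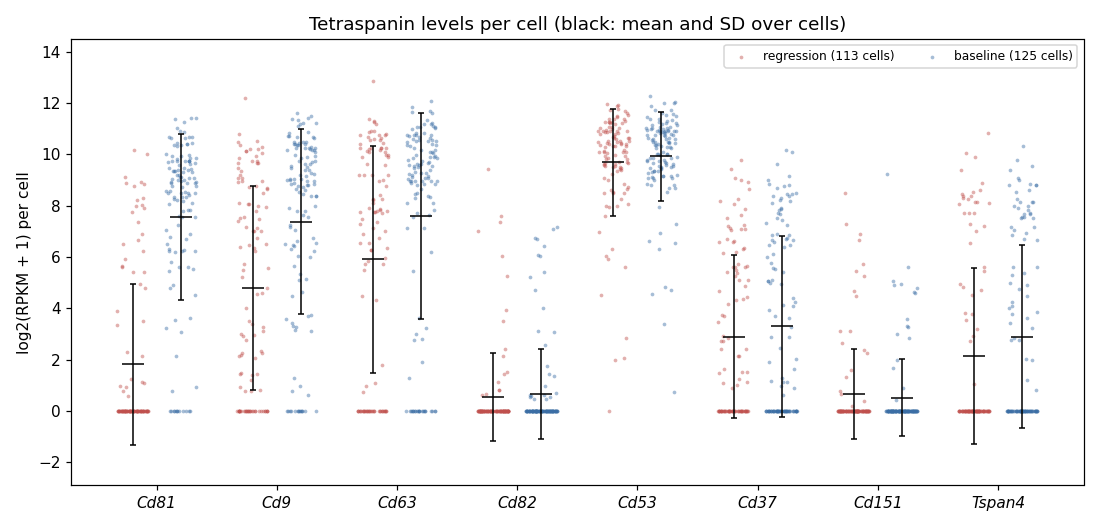
Level of each tetraspanin per cell as log2(RPKM + 1), with 113 regression cells (red, left of each pair) and 125 baseline cells (blue, right); black bars are the mean and SD over cells. Most regression cells lie at 0 for Cd81, whereas Cd53 sits near 10 in both groups.

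The Cd81 difference was found in each stretch of sample numbers. Its mean was 1.32 in regression cells 1 to 20, 1.81 in 93 to 111 and 1.97 in 168 to 244, and 7.95 in baseline cells 21 to 92 and 7.07 in 112 to 167. It was listed in 25.0%, 22.2% and 32.0% of cells of these regression stretches, and in 89.9% and 87.5% of cells of the baseline stretches. All 6 pairings of a regression with a baseline stretch gave a lower mean in regression, from -6.64 to -5.10, and 18.3% of the 3946 genes tested also had the lower mean in all 6. Tested genes are those that 25% or more of regression or of baseline cells list. The order of the stretches within a group is not read here, since the intervals of their shares overlap.

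Cd81 was listed more often in regression cells with more genes, and its share was lowest in the cells with fewest genes in both groups. Spearman's rank correlation between Cd81 and genes listed per cell was 0.49 over 113 regression cells and 0.03 over 125 baseline cells, with -0.11 in cells 21 to 92 and 0.24 in cells 112 to 167. Among cells with 1000 to 2000 genes, Cd81 was listed in 2 of 32 regression cells (6.25%, interval 0.77 to 20.8%) and in 21 of 28 baseline cells (75.0%, interval 55.1 to 89.3%). Among those with 2000 to 3000 genes it was listed in 14 of 50 regression cells (28.0%, interval 16.2 to 42.5%) and in 59 of 63 baseline cells (93.7%, interval 84.5 to 98.2%). Above 3000 genes it was listed in 17 of 31 regression cells (54.8%, interval 36.0 to 72.7%) and in 31 of 34 baseline cells (91.2%, interval 76.3 to 98.1%). The regression share was thus the lower one in each range of genes listed. These ranges were set after the values were seen, and the part of depth in the pattern was not tested.

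The Cd81 difference was of about the same size when cells with doubtful identity were left out. At least 2 of 5 neutrophil markers were listed in 23 of 113 regression cells and 7 of 125 baseline cells; their summed level ran from 0.00 to 29860 RPKM in regression and from 0.00 to 17653 RPKM at baseline, and the defining marker Ly6g was listed in no cell. At least 2 of 6 classical monocyte markers were listed in 58.4% of regression and 34.4% of baseline cells, with summed levels of 0.00 to 15386 RPKM in regression and 0.00 to 6847 RPKM at baseline. At least 2 of 6 nonclassical monocyte markers were listed in 33.6% of regression and 58.4% of baseline cells, with summed levels of 0.00 to 1506 RPKM in regression and 0.00 to 2036 RPKM at baseline. Leaving out 23 regression and 17 baseline cells, those with 2 or more markers of a type other than macrophage or monocyte, gave a Cd81 difference of -5.91. It was -5.62 without the 7 regression and 9 baseline cells whose Apoe level went against their label. The part of the monocyte markers in the difference was not tested.

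The 5 genes with a pattern most like that of Cd81 over cells are given for each group. Over 113 regression cells the highest rank correlations belonged to Milr1, a mast cell immunoglobulin-like receptor (0.45), Dpy30, a subunit of histone methyltransferase complexes (0.43), the metallothionein gene Mt2 (0.41), the translation factor gene Denr (0.40) and the proteasome gene Psmd14 (0.40). Over 125 baseline cells they belonged to Gas7, a growth arrest gene (0.41), the complement genes C1qa (0.33) and C1qc (0.32), the nuclear lamina gene Lmna (0.33) and the lysosomal hydrolase gene Gusb (0.32). None of the regression genes exceeded 0.13 at baseline, and the baseline genes reached at most 0.25 in regression. Among the members, Tspan4 ranked 31 in regression (0.35) and 28 at baseline (0.25). Cd9 ranked 52 in regression (0.33) and 927 at baseline (0.07), and Cd63 ranked 1798 (0.10) and 17 (0.27). Cd37 ranked 659 in regression (0.20) and 147 at baseline (0.19), and Cd53 ranked 3097 (-0.03) and 2180 (-0.02). The 3418 genes compared in regression had a median rank correlation of 0.11 and 94 were at 0.3 or more, against a median of 0.01 and 6 such genes among 3518 at baseline. All of these are weak to moderate, and cells share their depth as a common factor.

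Genes around Cd81 were rarely listed, apart from Tspan32. Of the 6 other genes of the table that start within 100 kb, 0 passed the filter on low values. The nearest family member, Tspan32, ends 33.1 kb before Cd81 begins and was listed in 24.8% of regression and 22.4% of baseline cells, with means of 1.48 and 0.99; it was singled out after its values were seen. R74862 lies on the other strand and overlaps the start of Cd81. It was listed in 0.88% of regression and 2.40% of baseline cells; whether counting used strand is not stated.

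Cd9, a close relative of Cd81, was also lower in regression, most of all in one stretch. Cd9 (gene 12527, chromosome 6, 125460266 to 125494791, minus strand) had lowest, median and highest cells of 0.00, 4.79 and 12.20 in regression, and of 0.00, 8.84 and 11.61 at baseline. The ranges overlapped almost wholly. Its mean was 4.78 ± 3.97 in regression and 7.38 ± 3.61 at baseline, a difference of -2.60, with 69.9% (interval 60.6 to 78.2%) and 86.4% (interval 79.1 to 91.9%) of cells. In regression cells 93 to 111 Cd9 was listed in 2 of 18 cells (11.1%, interval 1.38 to 34.7%), against 14 of 20 in cells 1 to 20 (70.0%, interval 45.7 to 88.1%) and 63 of 75 in cells 168 to 244 (84.0%, interval 73.7 to 91.4%). In baseline cells 21 to 92 and 112 to 167 it was listed in 88.4% and 83.9%. Cells 168 to 244 therefore listed Cd9 about as often as baseline cells, but at lower level: the median of cells listing it was 7.03 there, and 9.19 and 8.95 in the baseline stretches. The difference was -1.91 without cells 93 to 111 and -3.92 without cells 168 to 244, and the log2 ratio of mean RPKM was -1.18.

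Cd63, the late endosome and lysosome tetraspanin, showed a break in another stretch. Cd63 (gene 12512, chromosome 10, 128900989 to 128912822, plus strand) had lowest, median and highest cells of 0.00, 7.49 and 12.86 in regression and 0.00, 9.26 and 12.08 at baseline, so its ranges overlapped as well. Its mean was 5.91 ± 4.42 in regression and 7.60 ± 4.03 at baseline, a difference of -1.69, with 68.1% (interval 58.7 to 76.6%) and 82.4% (interval 74.6 to 88.6%) of cells. It was listed in 5 of 20 regression cells 1 to 20 (25.0%, interval 8.66 to 49.1%), against 12 of 18 cells 93 to 111 (66.7%, interval 41.0 to 86.7%) and 60 of 75 cells 168 to 244 (80.0%, interval 69.2 to 88.4%). Baseline cells 21 to 92 listed it in 87.0% and 112 to 167 in 76.8%. Where it was listed, the medians were 9.18 in regression and 9.64 at baseline. Leaving out cells 1 to 20 gave a Cd63 difference of -0.85 and leaving out cells 168 to 244 one of -3.68; weighting stretches equally gave -2.57. The log2 ratio of its mean RPKM was -0.55.

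Some regression stretches differed from each other in these genes by more than the groups did. Cells 93 to 111 minus cells 1 to 20 gave -4.44 for Cd9 and 4.08 for Cd63, while Cd81 differed by 0.49 between them. Across all 4482 genes tested between these stretches, 31.2% were lower and 8.14% higher by 1 or more in cells 93 to 111, and their median cells listed 1892.5 genes, against 2669 in cells 1 to 20. Cells 168 to 244 minus cells 93 to 111 gave 4.32 for Cd9 (5.6% of 3910 genes were lower and 18.6% higher by 1 or more), and cells 168 to 244 minus cells 1 to 20 gave 4.93 for Cd63 (15.1% of 4649 genes were lower and 7.08% higher by 1 or more). Other pairs of regression stretches were closer: cells 168 to 244 minus cells 1 to 20 gave -0.12 for Cd9, and cells 168 to 244 minus cells 93 to 111 gave 0.84 for Cd63. Between the baseline stretches, cells 112 to 167 minus cells 21 to 92, none of the 8 members differed by 1 or more, where 3.71% of 4096 genes were lower and 3.93% higher by that size. Cd81 came closest, at -0.88.

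**Figure D2:**
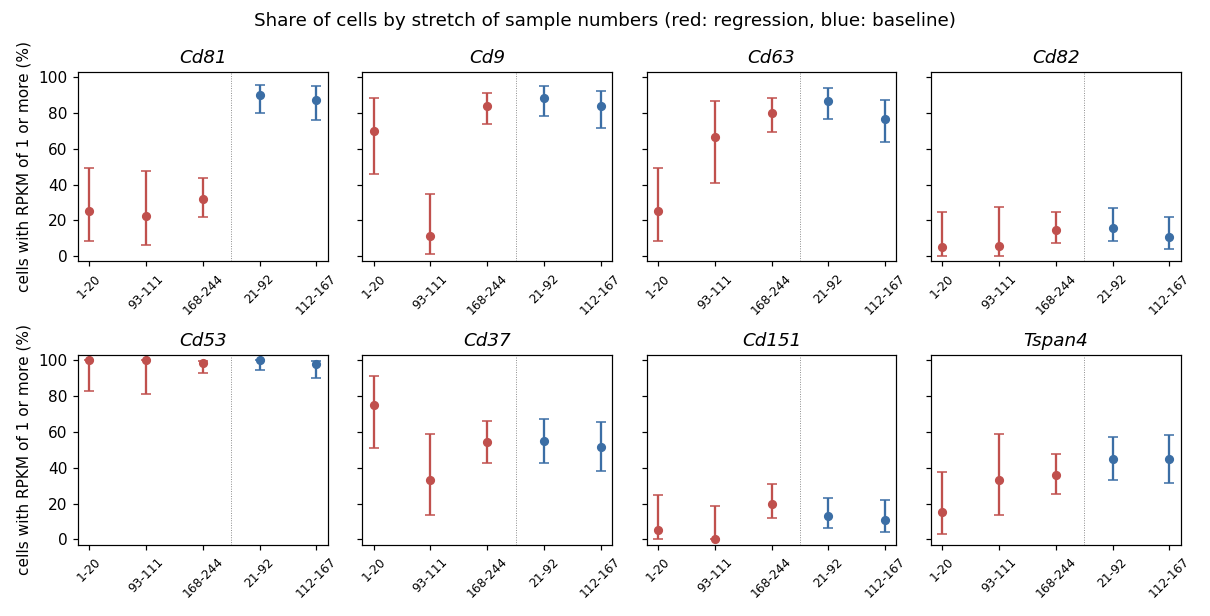
Share of cells that list each tetraspanin at RPKM of 1 or more, in percent, for the 3 regression stretches (red) and the 2 baseline stretches (blue) of sample numbers; bars are exact 95% binomial intervals. Cd81 is low in all 3 regression stretches, Cd9 is low in cells 93 to 111 (11.1%) and Cd63 in cells 1 to 20 (25.0%).

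Cd53, a tetraspanin of leukocytes, was the most abundant member and hardly differed. Cd53 (gene 12508, chromosome 3, 106759921 to 106790149, minus strand) had lowest, median and highest cells of 0.00, 10.31 and 11.95 in regression and 0.73, 10.36 and 12.27 at baseline. It was listed in 112 of 113 regression cells and 124 of 125 baseline cells. Its mean was 9.70 ± 2.08 in regression and 9.93 ± 1.73 at baseline, a difference of -0.23 that the pairings of stretches gave with both signs (-0.53 to 0.29), and that was 0.01 without cells 168 to 244. It made up 54.7% of the summed RPKM of the 8 members in regression and 38.0% at baseline.

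Cd37, another leukocyte tetraspanin, was found in about the same share of both groups. Cd37 (gene 12493, chromosome 7, 45233632 to 45239115, minus strand) had lowest, median and highest cells of 0.00, 1.51 and 9.76 in regression and 0.00, 1.62 and 10.19 at baseline. It was listed in 54.9% (interval 45.2 to 64.2%) of regression cells and 53.6% (interval 44.5 to 62.6%) of baseline cells, and its mean was 2.89 ± 3.18 and 3.29 ± 3.52, a difference of -0.41. Without regression cells 93 to 111, which listed it in 33.3%, the difference was -0.19, and without cells 168 to 244 it was -0.76.

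Tspan4, a component of migrasomes, the vesicles that moving cells leave on their retraction fibres, had a small difference. Tspan4 (gene 64540, chromosome 7, 141475240 to 141493427, plus strand) had lowest, median and highest cells of 0.00, 0.00 and 10.85 in regression and 0.00, 0.00 and 10.34 at baseline. It was listed in 31.9% (interval 23.4 to 41.3%) of regression and 44.8% (interval 35.9 to 54.0%) of baseline cells, and the cells that listed it had a higher median in regression (7.71) than at baseline (7.16). Its means of 2.15 ± 3.43 and 2.89 ± 3.57 differed by -0.74, which became -0.36 with a pseudocount of 10 and -0.12 as the log2 ratio of mean RPKM. Its neighbour Cd151 ends 3.77 kb before it.

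Cd82 and Cd151 were rare in both groups. Cd82 (gene 12521, chromosome 2, 93419111 to 93463140, minus strand), known as a suppressor of metastasis, was listed in 11.5% (interval 6.27 to 18.9%) of regression and 13.6% (interval 8.13 to 20.9%) of baseline cells, with means of 0.55 ± 1.71 and 0.68 ± 1.75. Cd151 (gene 12476, chromosome 7, 141467392 to 141471473, plus strand), which binds laminin-binding integrins, was listed in 14.2% (interval 8.32 to 22.0%) of regression and 12.0% (interval 6.87 to 19.0%) of baseline cells, with means of 0.65 ± 1.75 and 0.52 ± 1.51. The median cell was at 0.00 for both genes in both groups, and the intervals of the shares overlapped. In cells 93 to 111, Cd151 was listed in 0 of 18 cells, for which 3 counts of the total are 16.7%.

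RPKM is scaled per length, and on that scale the levels of the members are set beside each other. Uneven amplification enters each value, and reads shared with processed pseudogenes of Cd9 and Cd63 cannot be seen. The order of genes is thus approximate. By mean log2(RPKM + 1), the order in regression was Cd53, Cd63, Cd9, Cd37, Tspan4, Cd81, Cd151 and Cd82. At baseline it was Cd53, Cd63, Cd81, Cd9, Cd37, Tspan4, Cd82 and Cd151. Cd63, Cd81 and Cd9 lay between 7.38 and 7.60 at baseline, with SDs over cells of 3.23 to 4.03. By mean RPKM, Cd9 (683) stood above Cd81 (583) there, so the order of these genes at baseline is not read. In regression Cd81 stood below both Cd9 and Cd63, also by mean RPKM (62.4, 302 and 592). Cd81 was above Cd9 in 13 regression cells and below it in 75, while at baseline it was above Cd9 in 55 cells and below it in 68. The 8 members summed to a median of 2329 RPKM per cell in regression and 3707 RPKM at baseline, and Cd81 held 2.51% and 15.5% of their summed RPKM.

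Of the 8 members, 7 had the lower mean in regression, where 53.3% of the genes tested did. Only 6 members passed the filter on low values; Cd82 and Cd151 did not. Of those 6, Cd81, Cd9 and Cd63 were lower by 1 or more, as were 7.37% of the 3946 genes tested, and 0 were higher by 1 or more, as were 5.6%. Cd81, Cd9, Cd63 and Tspan4 had the lower mean in all 6 pairings of stretches, as did 18.3% of the genes tested. Nothing is read from these counts, since the members were proposed with this contrast known.

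**Figure D3:**
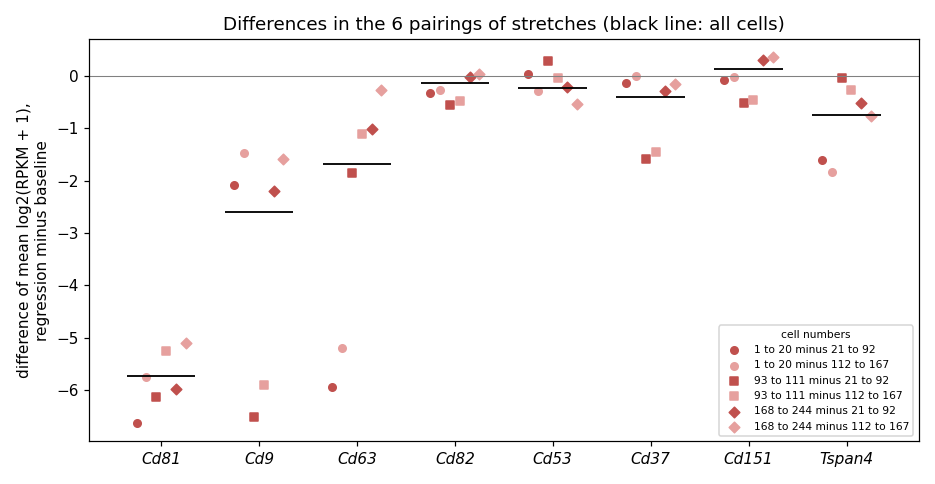
Difference of mean log2(RPKM + 1), regression minus baseline, for each tetraspanin in the 6 pairings of stretches (symbols) and over all cells (black lines). Cd81 stays between -6.64 and -5.10, whereas Cd9 and Cd63 spread widely with the regression stretch used.

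Single regression cells listed fewer of the 8 genes, with Cd81, put first for its known difference, as the largest part. Regression minus baseline, the share of cells differed by -59.6 points for Cd81, -16.5 for Cd9, -14.3 for Cd63 and -12.9 for Tspan4. The other members differed by -2.10 to 2.16 points. The number listed ran from 0 to 7 with a mean of 3.79 ± 1.57 over 113 regression cells, and from 1 to 8 with a mean of 4.81 ± 1.43 over 125 baseline cells, a difference of -1.02. At least 5 were listed in 32 regression cells (28.3%, interval 20.2 to 37.6%) and 83 baseline cells (66.4%, interval 57.4 to 74.6%). At most 2 were listed in 20.4% (interval 13.4 to 29.0%) and 7.20% (interval 3.35 to 13.2%). The stretch means were 3.20, 2.72 and 4.20 in regression cells 1 to 20, 93 to 111 and 168 to 244, and 4.94 and 4.64 in baseline cells 21 to 92 and 112 to 167. The difference was -1.83 without cells 168 to 244. The number of members listed went with genes listed per cell, with a rank correlation of 0.55 in regression and 0.44 at baseline.

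**Figure D4:**
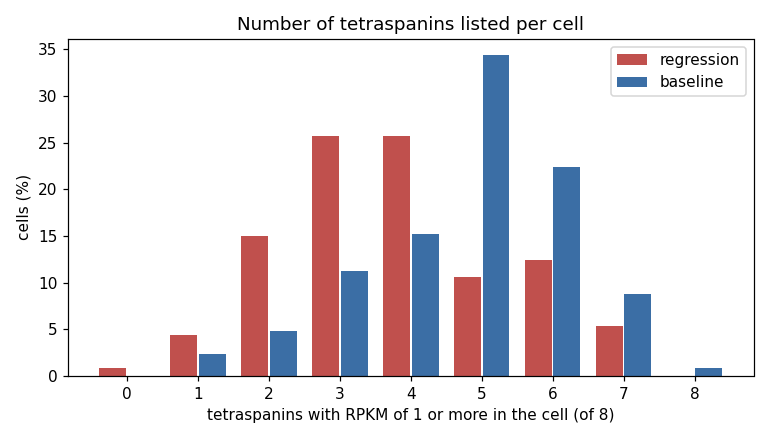
Percent of cells by the number of the 8 tetraspanins listed at RPKM of 1 or more, for 113 regression cells (red, left) and 125 baseline cells (blue, right). Regression cells peak at 3 and 4 genes, baseline cells at 5.

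Cd81, Cd9 and Cd63 were listed together in few regression cells and in most baseline cells. A joint share with Cd81 cannot exceed the Cd81 share, which was 29.2% in regression and 88.8% at baseline. The contrast between the groups in joint listing is therefore not a result separate from that of Cd81. All 3 were listed in 20 regression cells (17.7%, interval 11.2 to 26.0%) and 90 baseline cells (72.0%, interval 63.3 to 79.7%). Cd9 and Cd63 without Cd81 were the most frequent combination in regression, with 35 cells (31.0%, interval 22.6 to 40.4%), against 7 baseline cells (5.6%, interval 2.28 to 11.2%). None of the 3 was listed in 10 regression cells and 4 baseline cells. The stretches differed here too: Cd9 alone was the most frequent combination in cells 1 to 20 (8 of 20), Cd63 alone in cells 93 to 111 (9 of 18) and Cd9 with Cd63 in cells 168 to 244 (33 of 75). In cells 93 to 111, Cd9 and Cd63 were listed together in 0 of 18 cells, with the same limit of 16.7%.

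Cd81 and Cd9 were listed together in 27 regression cells (23.9%, interval 16.4 to 32.8%) and 98 baseline cells (78.4%, interval 70.2 to 85.3%). Here too the Cd81 share sets the upper bound in each group. Of regression cells that listed Cd81, 81.8% listed Cd9, and of those that did not, 65.0%. At baseline these shares were 88.3% and 71.4%. The share with both was 13.2% in regression without cells 168 to 244. The rank correlation between Cd81 and Cd9 was 0.33 over regression cells, with 0.49, 0.36 and 0.36 in cells 1 to 20, 93 to 111 and 168 to 244. At baseline it was 0.07, with -0.05 in cells 21 to 92 and 0.24 in cells 112 to 167.

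Other pairs were as weakly related. Over the 28 pairs, the rank correlation ran from -0.09 to 0.35 in regression (median 0.09) and from -0.08 to 0.40 at baseline (median 0.07). A rank correlation of 0.3 or more was found in 3 pairs in regression, all with Cd81 (Tspan4 0.35, Cd151 0.33, Cd9 0.33), and in 2 pairs at baseline, both with Cd63 (Tspan4 0.40, Cd9 0.33). Of baseline cells that listed Cd63, 52.4% listed Tspan4, and of those without Cd63, 9.09%. The rank correlation between Cd63 and Tspan4 was 0.40 in cells 21 to 92 and 0.41 in cells 112 to 167, but 0.11 over regression cells. Cd53 showed no relation above 0.11 to any other member in either group. Within single stretches the rank correlation spread more widely, up to 0.73 for Cd82 with Cd151 over 20 cells, where 1 cell lists each gene. Rank correlations are descriptions, and cells share depth.

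**Figure D5:**
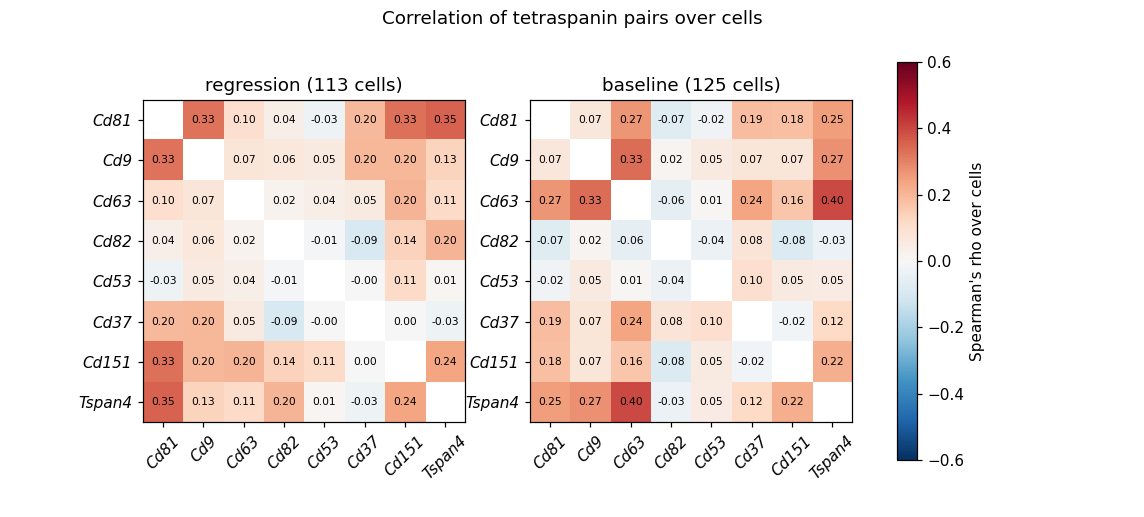
Spearman's rank correlation over cells for each pair of tetraspanins, in 113 regression cells (left) and 125 baseline cells (right); red is positive and blue negative. The highest values are 0.35 for Cd81 with Tspan4 in regression and 0.40 for Cd63 with Tspan4 at baseline.

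The 33 regression cells that listed Cd81 were set beside the 80 that did not, a split made after the values were seen. Cells with Cd81 listed a median of 3041 genes, against 2227 in cells without it, and a mean of 4.33 of the other 7 members, against 3.15 in cells without it. Tspan4 was listed in 57.6% of cells with Cd81 and 21.3% without, Cd151 in 33.3% with and 6.25% without, Cd37 in 72.7% with and 47.5% without, and Cd63 in 72.7% with and 66.3% without. Their Apoe level was like that of the others, with a median of 12.85 in cells with Cd81 and 12.23 in cells without, and 31 of the 33 lay above the highest baseline cell. At baseline, the 111 cells with Cd81 listed a median of 2530 genes and the 14 without it 2058. The baseline stretches went opposite ways. The medians were 2454.5 with Cd81 and 2720 without it (7 cells) in cells 21 to 92. In cells 112 to 167 they were 2755 with Cd81 and 1907 without it (7 cells). The part of genes listed per cell in these shares was not tested.

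The rest of the family was mostly silent. Of 23 other tetraspanin genes in the table, 3 passed the filter on low values: Tspan31 was lower in regression with means of 2.23 and 3.16 (-0.94), Tspan13 was lower with 1.02 and 1.92 (-0.90), and Tspan14, which escorts the protease ADAM10 to the surface, was higher with 2.27 and 1.64 (0.63). Tspan13 was listed in 18.6% of regression and 44.0% of baseline cells, and so passed through baseline alone. Just under the filter were Tspan32, with a difference of 0.49, and Tspan3, with -0.22. The median of the 3 that passed was -0.90, beside -0.05 over all 3946 genes tested, and was -0.15 without cells 168 to 244. It ran from -1.30 to 0.00 over 17 other settings, which include other filters. Resting on 3 genes that depend on the filter, it is not read as a trait of the family.

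Genes whose products tetraspanins bind went both ways. Of 18 partner genes, 11 passed the filter; 3 were lower and 8 higher in regression, with a median of 0.60; of all 3946 genes tested, 2102 were lower and 1844 higher, with a median of -0.05. Ifitm3, an antiviral membrane protein, had means of 10.39 in regression and 8.48 at baseline (1.92), and Itgam, the sorted CD11b integrin chain, 6.36 and 4.72 (1.64). The protease gene Adam10 differed by 0.74, the integrin chain gene Itgb1 by -0.07 and Igsf8, a direct partner of CD9 and CD81, by -0.39. The partners' median was -0.01 without baseline cells 21 to 92. Of 14 genes of vesicle formation and release, 9 passed and 8 were higher in regression, with a median of 0.39. None differed by 1 or more, where 7.37% of the genes tested were lower and 5.6% higher by that size. Rab27a (31.0% of regression and 19.2% of baseline cells), Flot1 (31.9% and 24.0%) and Flot2 (25.7% and 21.6%) passed through regression alone, where they were higher. Nothing is therefore read from the count or median of these vesicle genes. Vps4b, an ATPase that ends the budding of endosomal vesicles, differed by 0.75 (3.36 and 2.61) and Tsg101, an early part of the same machinery, by -0.63 (1.70 and 2.33).

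Lysosome membrane genes went both ways, and antigen presentation genes were lower in regression. Of 9 lysosome membrane genes, 7 passed, with 5 lower and 2 higher in regression and a median of -0.25. Of all genes tested, 53.3% were lower, with a median of -0.05. The lysosome coat gene Lamp1 was higher in regression (7.47 and 4.77, difference 2.70) and the macrophage lysosome marker Cd68 lower (7.43 and 8.47, difference -1.05). This median was 0.06 without cells 168 to 244. A list of 7 antigen presentation genes, 6 of the MHC class II pathway and the costimulatory gene Cd86, passed in full, and all 7 were lower by 1 or more, as were 7.37% of genes tested. Their median was -2.96, led by the invariant chain gene Cd74 (7.30 and 11.18, difference -3.87) and H2-Aa (5.95 and 9.56, difference -3.61). Their median was -0.79 as the log2 ratio of mean RPKM and -1.66 without cells 168 to 244. Cd74 and Cd86 had the lower mean in all 6 pairings of stretches, as did 18.3% of genes tested. H2-Aa had it in 4 pairings and the other genes of the list in 5.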

How the data were processed

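Single macrophages were captured on a microfluidic chip, and SMARTer cDNA went into Nextera XT libraries, per the labels' protocols, whose text speaks of islet cells. The authors deposited RPKM values, already scaled by length and library size, for 24475 genes in 244 libraries. Per the submitters' processing notes, CASAVA 1.8.2, FastQC and the mm10 build were used; aligner, annotation and RPKM program: not stated there. Without molecular identifiers, uneven amplification enters each value. Processed pseudogenes of Cd9 and Cd63 exist and are not in the table, so reads shared with them cannot be seen. The table's columns were matched to samples by the number in each title.

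Pairs of libraries with r over 0.9 (log2 values) were averaged, and cells with at least 1000 genes were kept. Doublets were not called, since RPKM values suit no caller. Levels were compared as log2(RPKM + 1); no count model and no test was used, because each group is 1 sample. The members and lists were chosen with earlier results of these data known. Genes named are the 8 members, in each list the 2 genes that differed most, the 5 genes per group with the highest rank correlation with Cd81, neighbours of Cd81 within 100 kb that were listed often enough, and Apoe. Predicted and clone-named genes were left out of the likeness ranking. Other list members were named after their values were seen. Positions are from GENCODE vM21 on the same build, and promoters from RefSeq. Depth estimates use genes with 1 annotated transcript and are given where disjoint gene sets found one step within 10%. Of 2 scoring rules tried, the first did so in 30 libraries; the second did so in 79 of 244 and was kept for that reason. Of 23 libraries with an estimate under both rules, 22 had the same step. With the kept rule, 57.4% of low values were within 0.1 reads of whole numbers (median over libraries). The formulas for differences and shares were run, in a separate copy, on simulated data with known changes. Code for pairs, lists and alternatives was not tested in this way. Python 3.11.15, pandas 2.3.3, SciPy 1.17.1 and matplotlib 3.10.9 were used. Alternatives were other pseudocounts, thresholds, scalings and cell filters, each stretch left out, and 2 sets of cells left out that were chosen after seeing the data. With no replicate SD, an alternative difference was held to have moved when it differed over 1.5 times, and a share when it left its interval.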

Additional observations from a re-analysis of the deposited data

How the results depend on the processing

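Over 15 other settings the Cd81 difference stayed negative, from -7.69 to -3.21. It was -3.72 with a pseudocount of 10 and -3.21 as the log2 ratio of mean RPKM; a larger pseudocount shrinks differences that rest on cells at 0. The share of regression cells with Cd81 ran from 23.7% to 38.3% over 14 settings, and the baseline share from 87.5% to 92.8%. The count of members with the lower mean was 6 to 8 of 8. Without cells 168 to 244, the difference in members listed per cell was -1.83 and the regression share with both Cd81 and Cd9 was 13.2%; the cause was not tested. The Cd82 difference was 0.69 as the log2 ratio of mean RPKM and below 0 in the 14 other settings, with the Cd151 difference running from -0.26 to 0.38, being below 0 in 2 and above 0 in 13 of 15 settings. Of 5 lists beside the members, 3 had a median below 0, and 2 to 4 over 17 settings. No paired analysis was possible because the labels name no animal or capture by which cells of the groups could be paired. No test was made. What depth limits was not tested per gene.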
